A study of Rattus norvegicus with 6 samples.

Results

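Ultraconserved elements were followed here through the 959 array probes whose names begin with uc, followed by an element number and a plus or a minus sign. They are 959 of 38804 probes that are not controls. The plus and minus probe of the same number were paired, which gave 479 pairs among 480 elements: 479 probes carried a plus sign and 480 a minus sign. Element numbers ran from 1 to 483; the numbers 11, 32 and 453 had no probe, and uc.404 had only its minus probe, which none of the arrays detected (0 of 6). The files do not explain the sign, which is taken here as the strand; the genome it refers to, and whether the labelling kept the strand of the RNA, are not given in the sources used here, so plus and minus below name the probe. The RNA came from stromal cells of rat femoral marrow (labelled BMMSCs), which grow attached to plastic and can form osteoblasts, after 7 days in a medium that induces bone formation. Cells of Wistar rats, the normal control strain, were hybridised to 3 arrays and cells of GK rats, the strain that stands for type 2 diabetes in the labels, to the other 3. Age and sex of the animals, and whether each sample came from its own animal, are not given in the sources used here, so a p-value here reflects the scatter among the deposited samples alone, which may be technical. Both groups were induced, and strain cannot be told apart from diabetes. Nor can fewer cells of a type be told apart from less RNA per cell in such bulk RNA.

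Ultraconserved elements are stretches of DNA that are identical between the human, mouse and rat genomes. Many lie between genes or in introns near genes that control development and can act as enhancers, and others overlap exons, often of genes for RNA-binding proteins, where they take part in the control of splicing. RNA copied from them, called transcribed ultraconserved regions, is known from normal tissues and tumours. The element may be read from either strand, alone or as a piece of a host gene's transcript. The files pair none of the 959 probes with a gene (0 matched an accession of the RefSeq table) and hold no probe sequence or genome position, so host genes and sequences are not given here. A probe's brightness also reflects how well it binds, so a difference between the plus and minus probe of an element is not a ratio of transcripts. Only its change between groups can be free of that effect, and only where both signals are well above background.

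Levels are log2 of the background-corrected signal minus the array's 75th percentile, so that 0 marks the 75th percentile. That percentile was between 171.6 and 234.8 signal units per array, and no ultraconserved probe was saturated. A probe counts as detected where the scanner software called it well above background. All 3 Wistar arrays were read in one scan together with GK replicate 1, and GK replicates 2 and 3 in another; arrays of one scan are called a slide here. Across the 385 ultraconserved probes that could be tested, pairs of arrays correlated between 0.918 and 0.971 (Pearson, across probes, which are not independent replicates). In the authors' deposited table GK replicate 3 stood apart, where 0 of the 959 probes lay at the minimum of its column while the other arrays had 490 to 534 there, and results that depend on this array are given without it as well. Of 24 markers of stromal, bone, blood, vessel and fat cells, 0 had a probe with a name, so the cell type could not be checked.

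Ultraconserved probes were detected less often than the array as a whole, and the minus probes somewhat more often than the plus probes. At least 3 of the 6 arrays detected 40.1% of the ultraconserved probes, against 72.1% of all probes, 53.1% of the noncoding RNA probes with IDs beginning ASRNV2 and 56.2% of the long noncoding set ASRN6LNC1A. No array detected 227 plus and 212 minus probes, and all 6 arrays detected 114 plus (23.8%) and 140 minus probes (29.2%). The Wistar arrays detected 139, 174 and 182 plus probes and 164, 196 and 201 minus probes. The GK arrays detected 218, 144 and 208 plus probes and 226, 170 and 224 minus probes. On each of the 6 arrays more minus than plus probes were detected. The count of plus probes averaged 190.0 ± 40.1 over the GK arrays and 165.0 ± 22.9 over the Wistar arrays (SD, n = 3 each), and the groups overlapped, because GK replicate 2 lay near Wistar replicate 1. The arrays stood in the same order for plus probes, minus probes and all probes of the array, of which between 65.1% (Wistar replicate 1) and 77.3% (GK replicate 1) were detected. The part of this array-wide difference in the counts of ultraconserved probes was not tested.

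**Figure D1:**
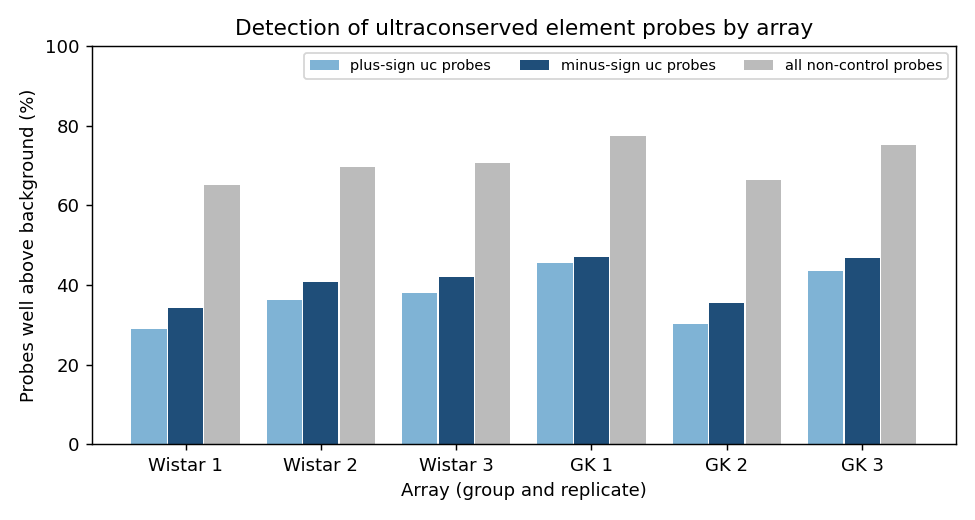
Share of plus-sign probes, minus-sign probes and all non-control probes well above background (%, vertical axis) on each of the 6 arrays (horizontal axis). Bars of the ultraconserved probes are below those of all probes on every array, and the minus bar is above the plus bar on every array.

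Read as pairs, elements fell into all 4 classes of detection: both strands, plus only, minus only and neither. With a strand counted as detected on at least 3 arrays, 104 of 479 elements (21.7%) had both strands, 78 (16.3%) only plus, 99 (20.7%) only minus and 198 (41.3%) neither. On single arrays the number of elements with both strands ranged from 74 (Wistar replicate 1) to 126 (GK replicate 3), and that with neither from 157 to 250. The classes depend on the limit. With detection on all 6 arrays, 54 elements had both strands, 60 only plus, 86 only minus and 279 neither. With detection on at least 1 array, 166 had both, 86 only plus, 102 only minus and 125 neither. The sharpest cases were elements with one strand detected on all 6 arrays and the other on 0: 31 elements on plus and 46 on minus.

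The brightest element of all belonged to this class. The minus probe of uc.84 read 8.40, 7.95 and 7.66 on the Wistar arrays and 7.53, 8.32 and 7.85 on the GK arrays, while its plus probe lay between -6.77 and -5.56 and was detected nowhere. Its levels in the groups overlapped (log2 difference -0.10, 95% interval -0.79 to 0.59). The minus probe of uc.298 was next, at 7.63, 7.33 and 7.00 in Wistar and 6.71, 7.29 and 6.75 in GK cells, with its plus probe between -6.96 and -5.76. The minus probe of uc.465 followed within the class at a mean of 4.35, and those of uc.19 and uc.448 at 1.66 and 1.49. Among elements detected on plus alone, uc.243 came first, and its plus probe read 2.23, 1.55 and 1.40 in Wistar and 1.48, 1.99 and 0.32 in GK cells. The plus probe of uc.239 had a mean of 0.42, that of uc.415 -0.08, that of uc.354 -0.62 and that of uc.86 -0.63. Of the 31 elements on plus alone, only uc.243 and uc.239 thus had a mean above the array's 75th percentile.

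**Figure D2:**
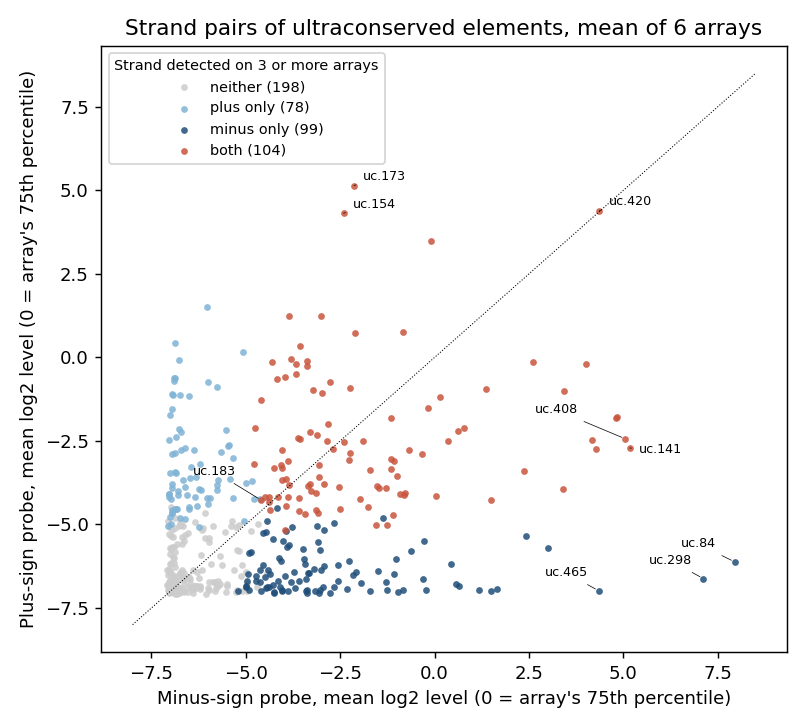
Mean level over 6 arrays of the plus probe (vertical axis, log2, 0 is the array's 75th percentile) against the minus probe (horizontal axis) of 479 elements, coloured by the strand detected on at least 3 arrays. The dotted line marks equal levels; uc.84 and uc.298 lie far to the right at the bottom, uc.173 and uc.154 at the top left, and uc.420 on the line.

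The balance of an element, the plus level minus the minus level on the same array, varied far more between elements than between arrays. Among the 54 elements with both strands detected on all 6 arrays it ranged from -7.88 to 7.28, with an SD between elements of 3.62 and a median SD between arrays of a group of 0.34. In 47 of the 54 the same strand was brighter on every array: plus in 21 and minus in 26. The levels of the 2 strands were nearly unrelated across these 54 elements (Pearson's r = -0.08, a description over elements that share the same arrays and were all chosen for detection). In 34 of the 54 the strands were at least 4-fold apart in signal.

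Among the elements with the plus probe brighter, uc.173 led. Its plus probe read 5.08, 4.82 and 5.07 in Wistar and 5.21, 5.53 and 5.18 in GK cells, the highest of the ultraconserved plus probes, and its minus probe had a mean of -2.14. The balance of uc.173 was 7.28 ± 0.16 (SD over 6 arrays). It was followed by uc.154 at 6.73 ± 0.38, uc.138 at 5.10 ± 0.41, uc.481 at 4.25 ± 0.33 and uc.280 at 3.91 ± 0.34. On the other side, the minus probe of uc.141 read 5.43, 5.09 and 5.07 in Wistar and 4.80, 5.39 and 5.24 in GK cells, against a plus mean of -2.71, which gave a balance of -7.88 ± 0.19. The balance of uc.408 was -7.49 ± 0.08, that of uc.49 -7.35 ± 0.29, that of uc.310 -7.01 ± 0.80 and that of uc.455 -6.63 ± 0.17. None of these 10 balances differed between GK and Wistar cells in limma, with adjusted p from 0.519 (uc.310) to 0.999 (uc.408); the 95% interval of the difference was -0.57 to 0.58 for uc.408 and -0.43 to 1.99 for uc.310.

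The element uc.420, whose plus probe was the next brightest of that sign after uc.173+, had both strands at about the same level. The plus probe of uc.420 read 3.87, 4.73 and 4.20 in Wistar and 4.39, 4.46 and 4.73 in GK cells. Its minus probe read 4.31, 4.20 and 4.23 in Wistar and 4.39, 4.59 and 4.49 in GK cells. The balance was 0.03 ± 0.33 (SD over 6 arrays), and its sign varied from array to array.

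The probes with the smallest p between GK and Wistar cells were mostly minus probes. Of 385 tested (182 plus and 203 minus), 1 (0.26%) had a limma adjusted p under 0.05, the minus probe uc.317-, which is near the 0.358% of all 27920 tested probes (0.197% with a higher level in GK). An unadjusted p under 0.05 was reached by 14.3% of the ultraconserved and 12.6% of all tested probes. Of the probes described next, uc.317-, uc.309-, uc.160- and uc.384- were detected in one group alone and so were tested only through the group where they are high: they had to differ, their p-values use signals below detection, and they count as no support for a difference. The probe uc.317- read -6.64, -6.77 and -6.67 in Wistar cells, where no array detected it, and -2.92, -1.49 and -2.43 in GK cells, where all 3 did. The group means of uc.317- were -2.28 ± 0.73 (GK) and -6.69 ± 0.07 (Wistar; SD, n = 3 each). Against the lowest signal that counts as detected on the Wistar arrays, uc.317- was at least 5.20-fold higher in GK cells (limma adjusted p = 0.00763). Its plus probe lay between -6.85 and -6.02 on all arrays and was detected on none. The call was lost with normexp background correction (log2 difference 0.76, limma adjusted p = 0.211) and after adding the slide to the fit as a fixed block (3.77, adjusted p = 0.127). It was also lost with dim signals raised to the lowest detected signal of their array (2.38, adjusted p = 0.067). Over the array 7 of 27920 tested probes passed with the slide block, 62 with normexp and 88 with raised signals, against 100 in the main fit. Because the other slide held GK arrays alone, the slide block compares GK replicate 1 with the Wistar arrays of its slide. The 3.77 is that difference by construction.

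The other 4 probes with the smallest unadjusted p among those higher in GK did not pass. The minus probe uc.309- read -4.86, -4.51 and -4.79 in Wistar cells, undetected, and -2.09, -1.92 and -3.34 in GK cells, detected on each array, so that it was at least 4.38-fold higher (limma adjusted p = 0.0897). The minus probe uc.46-, detected on all arrays, read 3.90, 3.52 and 3.49 in Wistar and 4.19, 4.62 and 4.38 in GK cells. This was 1.69-fold higher in GK, with groups that did not overlap (log2 difference 0.76, 95% interval 0.25 to 1.27, limma adjusted p = 0.237). The plus probe uc.226+, not detected on every array, differed by 1.00 (limma adjusted p = 0.245), and by 0.18 with normexp. The minus probe uc.160-, undetected in Wistar cells, was at least 1.28-fold higher in GK (adjusted p = 0.314).

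All 5 probes with the smallest unadjusted p among those lower in GK were minus probes, and none passed. The probe uc.122- read -3.33, -3.44 and -2.92 in Wistar and -5.31, -5.18 and -4.59 in GK cells, where only replicate 3 detected it (limma adjusted p = 0.0638). The probe uc.282-, detected on all arrays, read -0.93, 0.15 and -0.68 in Wistar and -2.42, -2.19 and -2.70 in GK cells. It was 3.86-fold higher in Wistar (log2 difference -1.95, 95% interval -2.71 to -1.19, adjusted p = 0.0846 in limma). The probe uc.28-, also detected on all arrays, read 0.65, 1.55 and 0.98 in Wistar and -0.56, 0.02 and -0.51 in GK cells, 2.66-fold higher in Wistar (limma adjusted p = 0.135). In each of these probes every GK array was below every Wistar array. That nearly follows from choosing the smallest p, and it held for 8.63% of all tested probes. The probe uc.256-, not detected on every array, differed by -2.09 (limma adjusted p = 0.142), and by -0.49 with normexp. The probe uc.384-, undetected in GK cells, was at least 2.24-fold higher in Wistar (adjusted p = 0.143). Without GK replicate 3, 5 ultraconserved probes passed (1.3% of them, against 2.38% of all tested probes): uc.317-, uc.309- (log2 difference 2.72, limma adjusted p = 0.0113), uc.122- (-2.02, adjusted p = 0.0197), uc.461+ and uc.77-, the last 2 named after their values were seen.

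**Figure D3:**
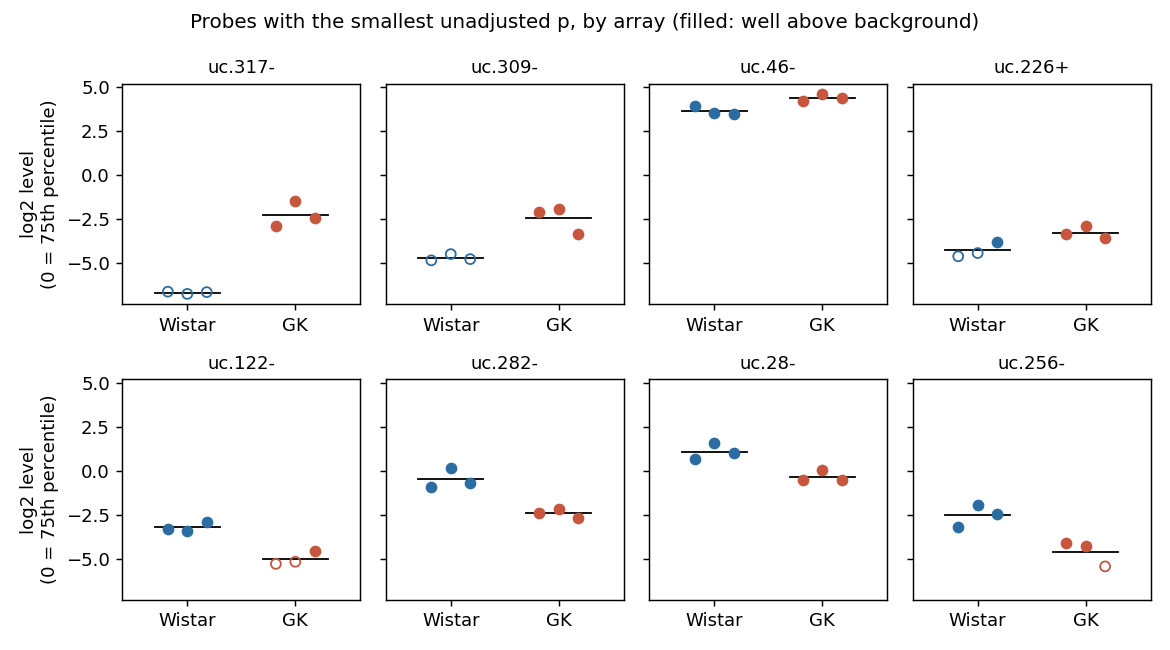
Level on each array (vertical axis, log2, 0 is the array's 75th percentile) of 8 ultraconserved probes in Wistar (blue) and GK (red) cells; lines are group means and filled points are well above background. In the upper row GK lies above Wistar, with uc.317- and uc.309- detected in GK cells only, and in the lower row below it.

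More minus than plus probes stood apart between the groups; the difference between the signs was not tested. An unadjusted limma p under 0.05 was reached by 13 of 182 plus probes (7.14%) and 42 of 203 minus probes (20.7%), against 12.6% of all tested probes. Without GK replicate 3 it was reached by 12 plus (6.59%) and 35 minus probes (17.2%), against 16.1% of all, so the minus share was then near that of the array. Of the 42, 34 were lower and 8 higher in GK, while over the array 6.67% of tested probes had such a p and were lower and 5.93% had one and were higher. The groups did not overlap for 28 plus (15.4%) and 53 minus probes (26.1%), against 18.6% of all tested probes; among the 53, GK was below Wistar in 40 and above in 13, while over the array it was below in 8.63% and above in 9.98% of tested probes. The mean was lower in GK for 113 plus and 137 minus probes, together 64.9% of the tested ultraconserved probes, against 50.4% of all tested probes, 58.5% of ASRNV2 and 59.8% of ASRN6LNC1A probes. Without GK replicate 3 the mean was lower in GK for 94 plus and 124 minus probes. Tested ultraconserved probes were also dimmer, at a median level of -3.18 against -1.44 over all tested probes. The median log2 difference was -0.11 for plus probes, where it turned to 0.10 with the slide as a block, and -0.13 for minus probes. It was -0.0040 over all tested probes (0.07 with that block), -0.086 for ASRNV2 and -0.091 for ASRN6LNC1A probes. These median differences were small beside the precision of one probe, whose 95% interval reached a median of 0.68 to either side.

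By array the shift was uneven. The median level of tested plus probes was -3.30, -3.18 and -3.05 in Wistar and -2.96, -3.42 and -3.48 in GK cells, so GK replicate 1, on the Wistar slide, was highest and GK replicates 2 and 3, on their own slide, were lowest. Against the Wistar arrays of its slide, GK replicate 1 gave a median difference of 0.10 for plus probes, with 76 of 182 lower, and of -0.12 for minus probes, with 119 of 203 lower. By construction the fit with the slide as a block gives these same differences. The median level of minus probes was -3.07, -2.97 and -2.82 in Wistar and -2.94, -3.14 and -3.14 in GK cells, and the groups overlapped. Within that slide 19 plus (10.4%) and 29 minus probes (14.3%) had an unadjusted limma p under 0.05, against 14.6% of all tested probes; GK is a single array there, and the Wistar arrays alone give the spread. Without Wistar replicate 2 there were 22 such minus probes (10.8%, against 7.64% of all), and without GK replicate 1 there were 31 such plus probes (17.0%, against 15.8% of all). In a fit of the probes detected on all 6 arrays it was 7 of 114 plus and 28 of 140 minus probes, against 13.0% of all such probes.

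**Figure D4:**
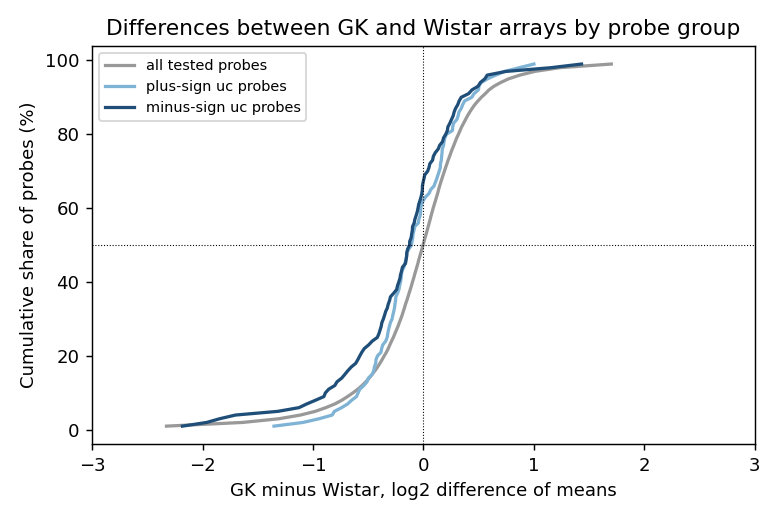
Cumulative share of probes (vertical axis, %) by GK minus Wistar log2 difference of means (horizontal axis) for all tested probes, plus-sign and minus-sign ultraconserved probes, from the 1st to the 99th percentile. The median is -0.0040 for all, -0.11 for plus (0.10 with the slide as a block) and -0.13 for minus probes, and at the 25th percentile the minus curve (-0.42) lies left of that of all probes (-0.27).

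A difference in balance between the groups passed for a single element, whose strands were detected together on a single array. Both strands could be tested in 104 elements, and the balance passed in 1 of them, uc.183 (0.962% of the pairs, limma with Benjamini-Hochberg adjustment over all 104 pairs, the only strand pairs on the array). The balance of uc.183 was 1.99, 1.48 and 1.32 in Wistar and -0.74, -1.37 and -0.81 in GK cells, a fitted shift of -2.57 on the log2 scale (limma adjusted p = 0.00712). Both strands were detected on GK replicate 3 alone, so on the other arrays the balance sets a signal below detection against another signal, and its sign gives no order of the strands. The plus probe read -4.47, -3.43 and -3.23 in Wistar and -5.03, -4.76 and -4.74 in GK cells and was detected on 3 arrays, Wistar replicates 2 and 3 and GK replicate 3. The minus probe read -6.46, -4.91 and -4.55 in Wistar and -4.29, -3.39 and -3.93 in GK cells and was detected on the 3 GK arrays only, so that it was tested only through the group where it is high. With signals below detection raised to the lowest detected signal of their array, the shift of uc.183 was -1.76 with an adjusted p of 0.135. The call was also lost with normexp (-0.33, adjusted p = 0.172) and with a fixed term for slide (-2.33, adjusted p = 0.0868). The -2.33 is by construction the difference between GK replicate 1 and the Wistar arrays of its slide. Neither strand passed on its own: the plus probe differed by -1.13 (adjusted p = 0.261) and the minus probe, undetected in Wistar cells, was at least 1.64-fold higher in GK (adjusted p = 0.327).

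Other balances moved less and did not pass. Over the 104 pairs 11 had an unadjusted limma p under 0.05 (10.6%), 9 of them with a shift toward plus in GK (8.65% of the pairs), and the groups did not overlap in 16 (15.4%). The balance of uc.407, with both strands detected on all arrays, was 2.03, 1.29 and 1.76 in Wistar and 2.66, 2.67 and 3.16 in GK cells, a shift of 1.14 toward plus (95% interval 0.41 to 1.87, limma adjusted p = 0.263). The balance of uc.28 was -2.78, -4.11 and -3.54 in Wistar and -2.22, -2.46 and -2.08 in GK cells, a shift of 1.22 that came with the lower minus probe described above, while the plus probe differed by -0.19. The balance of uc.133 was -3.05, -3.01 and -3.62 in Wistar and -2.32, -2.02 and -2.19 in GK cells, with a plus probe detected in GK cells alone. This pair was tested only through the group where plus is high, and its Wistar balances use signals below detection. Its shift of 1.05 (limma adjusted p = 0.263) thus counts as no support for a difference. It was 0.83 with dim signals raised to the floor and 0.16 with normexp. Toward minus, the balance of uc.46 was -4.31, -3.51 and -3.45 in Wistar and -4.45, -4.78 and -4.77 in GK cells, a shift of -0.91 with the higher minus probe and a plus probe that differed by -0.15. The balance of uc.459 shifted by -1.55 (adjusted p = 0.510), and GK replicate 1, at -5.95, lay apart from GK replicates 2 and 3, at -3.64 and -3.09. Without that array the shift of uc.459 was -0.69, and with dim signals raised to the floor it was -0.53. The median shift over the 104 pairs was 0.10, with 65 toward plus (62.5%) and 39 toward minus, and 0.02 among the 54 detected throughout.

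**Figure D5:**
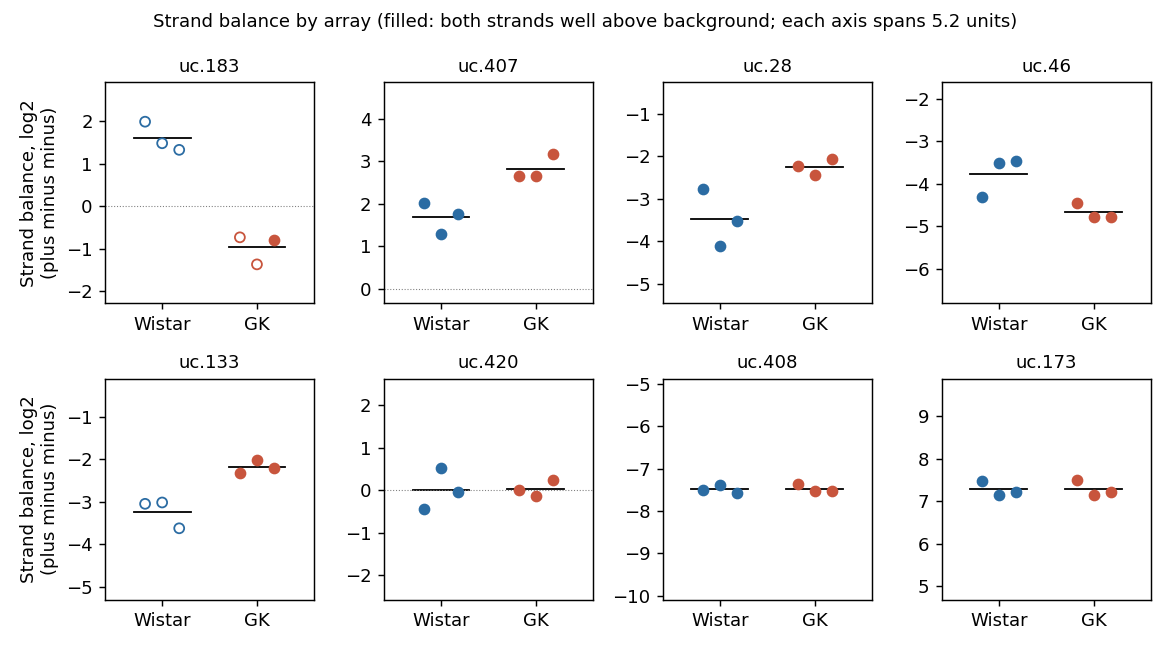
Strand balance (plus minus minus probe, log2, vertical axis) on each array of 8 elements in Wistar (blue) and GK (red) cells; lines are group means, filled points have both strands well above background, and each panel spans the same range. Most points of uc.183 are open, with a signal below detection, and the group means of uc.420, uc.408 and uc.173 lie at about the same height.

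Most elements kept their detection class between the groups. With a strand counted as detected on at least 2 of the 3 arrays of a group, 400 of 479 elements (83.5%) had the same class in GK and Wistar cells and 79 (16.5%) had another. Of the 400, 178 had neither strand in either group; among the 301 elements detected in at least 1 group, 222 (73.8%) had the same class. The largest moves were from neither strand in Wistar to plus only (19 elements) or minus only (19 elements) in GK. In the other direction 5 went from plus only and 10 from minus only to neither. Opposite single-strand classes in the groups were seen in 2 elements: uc.183, with plus in Wistar and minus in GK, and uc.292, named after its values were seen, with minus in Wistar and plus in GK. In uc.292 the minus probe read -3.11, -3.80 and -5.05 in Wistar and -6.21, -6.79 and -5.26 in GK cells. Its plus probe read -5.41, -4.99 and -4.41 in Wistar and -5.06, -4.75 and -4.72 in GK cells. The plus levels of uc.292 overlapped, so no rise of the plus probe in GK is shown. Every GK minus level lay below every Wistar minus level, but the GK levels were all below the lowest detected level of their arrays. So was that of Wistar replicate 3, so the nearest values, -5.05 and -5.26, were both undetected and give no order of the groups. Detection on all 3 GK and no Wistar array was seen in 1 plus (uc.133+) and 4 minus probes (uc.160-, uc.183-, uc.309- and uc.317-), 0.209% and 0.833%, against 0.783% of all probes of the array. The reverse was seen in 1 minus probe, uc.384-, 0.208% of minus probes against 0.0902% of all. Over the whole array 304 probes were gained in this way and 35 lost, and the lowest level that counted as detected was lower on GK replicates 1 and 3 (-5.35 and -5.24) than on the other arrays (-4.78 to -4.45).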

How the data were processed

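Total RNA of 3 Wistar and 3 GK samples carried a Cy3 label, per the labels' protocols, and samples were grouped by their titles. Per the file headers, version 11.0.1.1 of Agilent Feature Extraction made the deposited intensity, background-corrected and not normalised between arrays. Spots with a feature outlier flag were left out (1 among the ultraconserved probes). Values are log2 intensity minus the array's 75th percentile over non-control probes. Probes detected on at least 3 arrays and measured on at least 2 per group were fitted with lmFit and tested two-sided with eBayes (limma 3.58.1, R 4.3.3). Benjamini-Hochberg adjustment covered the 27920 tested probes. Balance was fitted over 104 pairs. Where no array of a group detected a probe, only a bound is given: the bright mean against the higher, per array, of the lowest detected signal and the own signal. The log2 values of the authors' deposited table (column medians 4.84; normalisation not given in the sources used here, scale and centring unknown) served as an alternative. The procedure was tested on simulated data. The members, the lists and the tests were chosen with earlier results of these data known. Named probes and elements were those that passed, the 5 smallest unadjusted p each way, the 5 strongest balances each way with both strands on 6 arrays, the 5 brightest single-strand elements each way, the 3 smallest p of the balance shift each way, the 3 brightest probes of each sign and elements with a single probe.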

Additional observations from a re-analysis of the deposited data

How the results depend on the processing

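The replicate number as a replicate block left 1 probe and 1 pair past the threshold, with 15 plus and 40 minus probes and 11 pairs at an unadjusted p under 0.05; same-numbered arrays of the groups correlated at -0.044, 0.17 and 0.44 in their deviations from group means, so the numbers were not taken to pair samples. The 10 probes and 6 balances with the smallest p kept their sign in each setting that tested them. They were picked for that p in the same arrays that the settings reuse, so a kept sign is no independent support. The strongest balances and brightest probes were not refitted. The median difference of plus probes did not keep its sign. It turned to 0.10 with the slide as a fixed block, which by construction gives the difference within the shared slide. With each array left out it was -0.18 to -0.015. Probes past the threshold numbered 0 with normexp and 0 with the filter to all 6 arrays, which does not test uc.317-. They also numbered 0 with the slide as a fixed block, where 7 of all 27920 tested probes passed. With dim signals raised to the floor (chosen after seeing the data) they numbered 0, and with each array left out 1 to 5. Pairs past the threshold numbered 0 with normexp, 0 with the filter to all 6 arrays (54 pairs tested) and 0 with raised signals. They numbered 4 of 479 without a filter on dim probes and 1 with each array left out. Under the slide block 1 pair passed, uc.459 (-3.28, limma adjusted p = 0.0414), in place of uc.183. The shift of uc.459 was -0.76 in the authors' deposited table, -0.06 with normexp and -2.12 to -0.69 with each array left out. The share of all tested probes at an unadjusted p under 0.05 moved with the setting, from 7.64% without Wistar replicate 2 to 16.1% without GK replicate 3, so the counts that follow are no behaviour of the ultraconserved probes alone. Plus probes at an unadjusted p under 0.05 numbered 6 with normexp (3.30%, against 10.8% of all), 7 with the filter to all 6 arrays (6.14%, against 13.0%), 29 without a filter (6.05%, against 10.8%) and 5 to 31 with each array left out. Minus probes numbered 25 with normexp (12.3%), 26 with the slide as a fixed block (12.8%, against 12.6% of all) and 22 to 46 with each array left out. Pairs numbered 6 of 54 tested with the filter to all 6 arrays, 36 of 479 without a filter and 5 to 19 of 104 with each array left out. By detection limit, elements with both strands numbered 54 (all 6 arrays), 166 (at least 1) and 213 (the positive and significant flag), and those with neither 125 (at least 1) and 87 (that flag). Signals not above background limit 6 of the 385 tested differences to a bound.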

Other observations

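Detection of elements with neighbouring numbers was counted, and whether they are alike was not tested. Of 480 elements 281 (58.5%) had at least 1 strand detected on at least 3 arrays. When an element was detected, the next number was detected in 173 of 278 cases (62.2%), and when it was not, in 105 of 198 (53.0%). The longest run of detected elements went from uc.417 to uc.427 (11 elements) and holds uc.420, and the longest run without detection from uc.227 to uc.233 (7 elements). These are values over the order of the numbers; genome positions were not used.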
